A study of Mus musculus with 6 samples.

Results

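The 10 genes described here encode inflammatory cytokines and the core of the NLRP3 inflammasome, namely Il1a, Il1b, Il1rn, Il18, Tnf, Il6, Il12b, Il10, Nlrp3 and Casp1. They were chosen by name, and all 10 were found among the 24421 gene symbols listed. RNA-seq was used to count their transcripts in TurboRFP-positive olfactory bulb cells of 3 control and 3 Sox9 KO mice, all adult males, with 1 library per mouse. All 6 mice had received bilateral olfactory bulb injections of AAV-GFAP-iCre-P2a-TurboRFP, a virus in which the GFAP promoter drives Cre and the red fluorescent protein TurboRFP, so virus, Cre and TurboRFP were shared by both groups. KO mice were Sox9fl/fl, and controls were C57BL/6J mice (genotype WT), in which Cre finds no floxed Sox9. Cells were dissociated with papain at 37 °C and sorted 4 weeks after injection. The gate was TurboRFP fluorescence, which depends on the GFAP promoter of the virus, and sorted cells were not re-sorted to measure purity, which the study judged from cell type markers by RNA-seq.

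Interleukin-1α and interleukin-1β are signals of the same receptor, and the receptor antagonist encoded by Il1rn blocks it. Interleukin-1β and interleukin-18 are made as inactive precursors, which caspase-1 cleaves once an inflammasome, such as the one that the sensor NLRP3 forms, has assembled. In brain these transcripts are found mainly in microglia and other myeloid cells, and a transcript level does not report cleavage or release of the protein.

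Values are normalized counts, which are reads per gene divided by 1 size factor per library. A gene was called when limma gave a Benjamini-Hochberg adjusted p under 0.05, over all 18413 genes tested, and a change of at least 1.5-fold. Fold changes are KO over control on log2(normalized count + 1). All 10 genes were tested. Of these, 6 were called higher in KO (Il1a, Il1b, Il1rn, Il10, Nlrp3 and Casp1) and 0 lower, beside 22.2% of all genes tested called higher and 28.8% called lower. At an unadjusted p under 0.05, limma also gave 0 lower, as did edgeR and DESeq2 on the recovered reads, and both tools gave 6 higher. With the libraries scaled to the same sum of 12 microglia markers, which were themselves higher in KO, 1 of the 10 was called higher and 3 lower. Under that scaling, 229 of all 18413 genes tested were called higher and 14351 lower. In the same 6 genes every KO library lay above every control library, as it did in 32.4% of all genes tested. In the other 4 (Il18, Tnf, Il6 and Il12b) the groups overlapped. The median log2 fold change was 1.42 over the 10 genes and -0.07 over all genes tested.

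**Figure D1:**
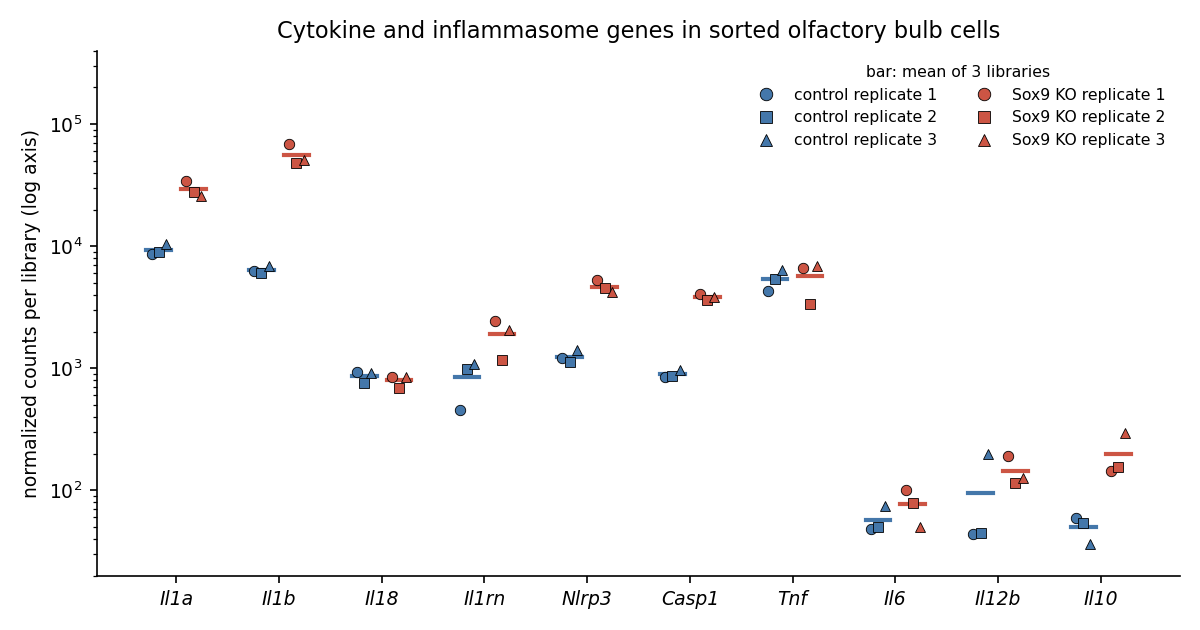
Normalized counts of the 10 genes on a log axis, with 1 point per library (circle, square and triangle for replicates 1, 2 and 3), controls in blue, Sox9 KO in red and bars at the group means of 3 libraries. The KO points of Il1b lie between 47915 and 68504, above control points between 6078 and 6849, whereas the points of Tnf, Il18, Il6 and Il12b overlap between the groups.

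The libraries held 18242129 to 86906527 reads on genes, and 1 read was worth 0.395 to 1.58 normalized counts. Sox9, the targeted gene, fell from 4921 to 6562 normalized counts in controls to 52.6 to 64.3 in KO. The sorted cells did not carry the same marker transcripts in both groups. The 9 astrocyte markers summed to between 445724 and 494875 normalized counts in controls and between 31671 and 40349 in KO (9 of 9 called lower, none at 0). The 12 microglia markers summed to between 151644 and 183889 in controls and between 492038 and 606646 in KO (11 of 12 called higher, none at 0). In such bulk samples, more cells of a type and more RNA per cell cannot be told apart. The split of all calls moved with the scaling of the libraries, from 4090 higher and 5299 lower as deposited to 2936 and 6191 at the same total, 2630 and 6597 at the same total without the ribosomal transcript Rn45s, and 5380 and 4100 under quantile normalization, and these scalings moved the median of all genes by -0.23, -0.31 and 0.27 on the log2 scale.

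The upstream sequences of 3 cytokine genes are shown because Il1b and Il1a, neighbours on chromosome 2, were among the genes that were called, whereas Tnf was not. They are the 250 bases before the RefSeq start (GRCm38.p6), on the strand of the gene and 5′ to 3′, and capitals mark the motif matches given after them. The windows are chr2:129371140-129371389 (minus strand) for Il1b, chr2:129309973-129310222 (minus strand) for Il1a and chr17:35202008-35202257 (minus strand) for Tnf.
Il1b: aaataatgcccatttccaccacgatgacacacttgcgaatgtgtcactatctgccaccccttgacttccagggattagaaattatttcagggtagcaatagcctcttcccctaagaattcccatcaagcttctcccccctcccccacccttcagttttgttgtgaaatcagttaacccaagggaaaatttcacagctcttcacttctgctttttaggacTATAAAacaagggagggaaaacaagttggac
Il1a: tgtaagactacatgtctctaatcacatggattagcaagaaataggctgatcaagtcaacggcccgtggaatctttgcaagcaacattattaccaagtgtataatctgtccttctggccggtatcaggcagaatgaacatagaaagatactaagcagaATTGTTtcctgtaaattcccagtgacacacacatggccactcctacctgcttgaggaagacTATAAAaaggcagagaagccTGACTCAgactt
Tnf: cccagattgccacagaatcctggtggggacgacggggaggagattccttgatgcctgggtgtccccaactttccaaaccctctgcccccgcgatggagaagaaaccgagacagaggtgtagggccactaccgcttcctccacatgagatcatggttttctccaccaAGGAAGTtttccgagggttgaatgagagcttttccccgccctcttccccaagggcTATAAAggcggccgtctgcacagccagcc
Each of the 3 windows held TATAAA, the core of a TATA box, ending 26 bases before the start in Il1b, 27 in Il1a and 24 in Tnf. Il1a also held TGACTCA, a match to the AP-1 motif TGANTCA, and the reverse complement of AACAAT, the core that SOX factors bind. Tnf also held AGGAAGT, a PU.1 motif. Both strands were searched in 32851 windows of the same length, and none of these matches overlapped another. TATAAA was found in 12.4% of all windows, TGANTCA in 6.75%, AACAAT in 9.42%, AGGAAGT in 7.69%, the C/EBP motif TTGCNNAA in 9.56% and the NF-κB consensus in 7.25%. Of the 9 genes with a window, Il6 held an NF-κB match ending 35 bases before its start, beside an AP-1 and a C/EBP match. One Nlrp3 window also held an NF-κB match, 177 bases before its start, and an AACAAT match on the opposite strand, Il18 held a TATAAA and an AACAAT match on the opposite strand, one Il1rn window held an AP-1 match, and the Il12b and Casp1 windows held none of these motifs. A match is a description of the letters in the window and not of binding.

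Il1b rose most of the 10 genes, and Il1a, with which it shares a receptor, also rose. Il1b (chr2:129364570-129371139, minus strand, 7 exons, GRCm38) had 6265, 6078 and 6849 normalized counts in controls and 68504, 47915 and 51385 in KO (replicates 1, 2 and 3 in this order, here and throughout). Every KO library was far above every control. The log2 fold change was 3.11 (SE 0.13, n = 3 per group), which is 8.65-fold with a 95% interval of 7.05 to 10.6 (limma adjusted p = 3.3e-08). Il1a (chr2:129299610-129309972, minus strand, 7 exons) had 8689, 8911 and 10444 normalized counts in controls and 34030, 28063 and 26049 in KO, again without overlap. Its log2 fold change was 1.65 (SE 0.12, n = 3 per group, 3.13-fold, 95% interval 2.60 to 3.77, limma adjusted p = 1.0e-06). Both genes overlap an annotated gene on the other strand, Il1bos for Il1b and Gm14023 for Il1a. Whether reads were counted by strand is not given in the sources at hand, so reads of each pair cannot be told apart. Gm14023 had 3396 to 4686 normalized counts in controls and 7848 to 10619 in KO, and Il1bos 88.1 to 140 in controls and 670.1 to 676.6 in KO.

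Within each library, Il1b rose relative to Il1a. The ratio of Il1b to Il1a was 0.72, 0.68 and 0.66 in controls and 2.01, 1.71 and 1.97 in KO. These ratios are not corrected for transcript length. Per kilobase, controls had 4620, 4482 and 5051 for Il1b and 4402, 4514 and 5291 for Il1a. The 2 genes were thus near each other in controls, whereas Il1b was above Il1a in every KO library. The groups did not overlap, and the exact two-sided permutation test gave p = 0.10, the smallest value that 3 libraries against 3 allow. A ratio within a library does not depend on scaling by 1 factor per library. Quantile normalization is not such a scaling, and under it the log2 fold changes were 2.63 for Il1b and 1.04 for Il1a.

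The receptor antagonist Il1rn (chr2:24336853-24351494, plus strand) rose, with a wide spread in both groups. It had 456, 988 and 1091 normalized counts in controls and 2442, 1176 and 2061 in KO. The lowest KO library, replicate 2, was close to the highest control. The log2 fold change was 1.2 (SE 0.33, n = 3 per group, 2.29-fold, 95% interval 1.37 to 3.83, limma adjusted p = 0.010). This call was lost without KO replicate 3 (1.10, adjusted p = 0.0746) and in limma without a trend of variance on mean expression (adjusted p = 0.0639). The ratio of Il1b to Il1rn was 13.7, 6.15 and 6.28 in controls and 28.1, 40.8 and 24.9 in KO, without overlap (exact permutation p = 0.10), whereas the ratio of Il1a to Il1rn overlapped between the groups.

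Il18, the other cytokine whose precursor caspase-1 cleaves, was not called. It (chr9:50554827-50581840, plus strand) had 938, 764 and 916 normalized counts in controls and 851, 689 and 855 in KO, and the groups overlapped. The log2 fold change as deposited was -0.13 (SE 0.13, n = 3 per group, limma adjusted p = 0.42). Its 95% interval of 0.75 to 1.12-fold leaves out changes of 1.5-fold or more under that scaling only. At the same total it was -0.37 (limma adjusted p = 0.041), and without Rn45s -0.46 (limma adjusted p = 0.013), neither called. Under the microglia marker scaling it was -1.90 and was called lower. Il18 overlaps Bco2 (229 to 254 normalized counts in controls and 683 to 760 in KO) and Tex12 (91.4 to 104 and 133 to 176) on the other strand, and reads of these genes cannot be told apart. The ratio of Il1b to Il18 was 6.68, 7.96 and 7.48 in controls and 80.5, 69.5 and 60.1 in KO (exact permutation p = 0.10).

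Nlrp3 and Casp1, the sensor and the protease of the inflammasome, rose in all 3 KO libraries with little spread. Nlrp3 (chr11:59541568-59566956, plus strand, 10 exons) had 1222, 1120 and 1403 normalized counts in controls and 5246, 4547 and 4193 in KO. Its log2 fold change was 1.90 (SE 0.12, n = 3 per group, 3.73-fold, 95% interval 3.12 to 4.47, limma adjusted p = 3.0e-07). Casp1 (chr9:5298517-5307265, plus strand, 10 exons) had 848, 862 and 963 normalized counts in controls and 4068, 3629 and 3825 in KO, with the lowest spread of the 10 genes among KO libraries, a coefficient of variation of 5.73%. Its log2 fold change was 2.11 (SE 0.10, n = 3 per group, 4.31-fold, 95% interval 3.71 to 5.0, limma adjusted p = 4.8e-08). The ratio of Nlrp3 to Casp1 changed little, from 1.44, 1.3 and 1.46 in controls to 1.29, 1.25 and 1.10 in KO. The ratio was lower in every KO library (exact permutation p = 0.10), but control replicate 2 (1.298) and KO replicate 1 (1.289) nearly met. Counting error alone came to a coefficient of variation of 3.19% for Nlrp3 and 3.75% for Casp1 in controls.

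Tnf, which encodes the cytokine TNF, was abundant and was not called. It (chr17:35199381-35202007, minus strand, 4 exons) had 4292, 5437 and 6410 normalized counts in controls and 6691, 3371 and 6933 in KO. KO replicate 2 held the lowest and KO replicate 3 the highest value of the 6 libraries, so the KO range enclosed the control range. Its log2 fold change came to 0.02 (SE 0.25, n = 3 per group, limma adjusted p = 0.95), with a 95% interval of 0.69 to 1.49-fold, and it was below 0 under every other scaling tried and when control replicate 1, KO replicate 1 or KO replicate 3 was left out. The ratio of Il1b to Tnf was 1.46, 1.12 and 1.07 in controls and 10.2, 14.2 and 7.41 in KO, without overlap (exact permutation p = 0.10).

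Il6, Il12b and Il10 lay far below the genes above in normalized counts. Il10, an anti-inflammatory cytokine (chr1:131019845-131024974, plus strand), was the only one of these 3 that was called. It had 59.9, 54.4 and 36.3 normalized counts in controls (41, 79 and 23 reads) and 144, 156 and 293 in KO (145, 395 and 193 reads). The log2 fold change was 1.91 (SE 0.33, n = 3 per group, 3.76-fold, 95% interval 2.26 to 6.27, limma adjusted p = 0.00055). The ratio of Il10 to Tnf was 0.014, 0.010 and 0.0057 in controls and 0.022, 0.046 and 0.042 in KO (exact permutation p = 0.10). Il6, a proinflammatory cytokine (chr5:30013114-30019981, plus strand), had 48.2, 50.2 and 74.1 normalized counts in controls (33, 73 and 47 reads) and 101, 79.0 and 50.1 in KO (102, 200 and 33 reads), and the groups overlapped. For Il6 the log2 fold change was 0.38 (SE 0.34, n = 3 per group, 95% interval 0.77 to 2.20-fold, limma adjusted p = 0.36), and counting error alone came to a coefficient of variation of 15% in controls. Il12b, which encodes the p40 subunit of interleukin-12 and interleukin-23 (chr11:44400063-44414033, plus strand), had 43.8, 44.7 and 199 normalized counts in controls and 193, 114 and 126 in KO. Control replicate 3 stood apart from the other controls and above every KO library. Its log2 fold change was 0.93 (SE 0.52, n = 3 per group, 95% interval 0.85 to 4.26-fold, limma adjusted p = 0.15), and without that library it was 1.65 and was called (adjusted p = 0.0042).

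Levels can be compared between genes only per length, here as normalized counts per kilobase of the longest protein-coding transcript (GENCODE M21). In controls, Il1a had a mean of 4736 and Il1b 4718 normalized counts per kilobase, and their ranges overlapped. Tnf followed at 3282, Il18 at 986, Casp1 at 595, Il1rn at 342 and Nlrp3 at 310. Il12b (49.2), Il10 (38.3) and Il6 (24.5) came last. Of these neighbours, Il1rn and Nlrp3, Il12b and Il10, and Il10 and Il6 overlapped over the libraries. In KO, the order was Il1b (41250), Il1a (14884), Tnf (3456), Casp1 (2566), Nlrp3 (1159), Il18 (902), Il1rn (765), Il10 (151), Il12b (74.3) and Il6 (32.8), with overlap between Tnf and Casp1 and between Il18 and Il1rn. Among 23346 genes with a length, Il1b moved from rank 208 in controls to rank 31 in KO, Il1a from 206 to 79 and Casp1 from 2538 to 569, whereas Tnf moved from 315 to 417. With the median transcript length instead, Il1b, Il1a and Tnf kept their places in both groups, and some of the other genes changed places. In controls Il6 (54.7) then stood above Il12b (50.3) and Il10 (38.3). In KO Il1rn (1395) then stood above Nlrp3 (1185) and Il18 (1022).

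**Figure D2:**
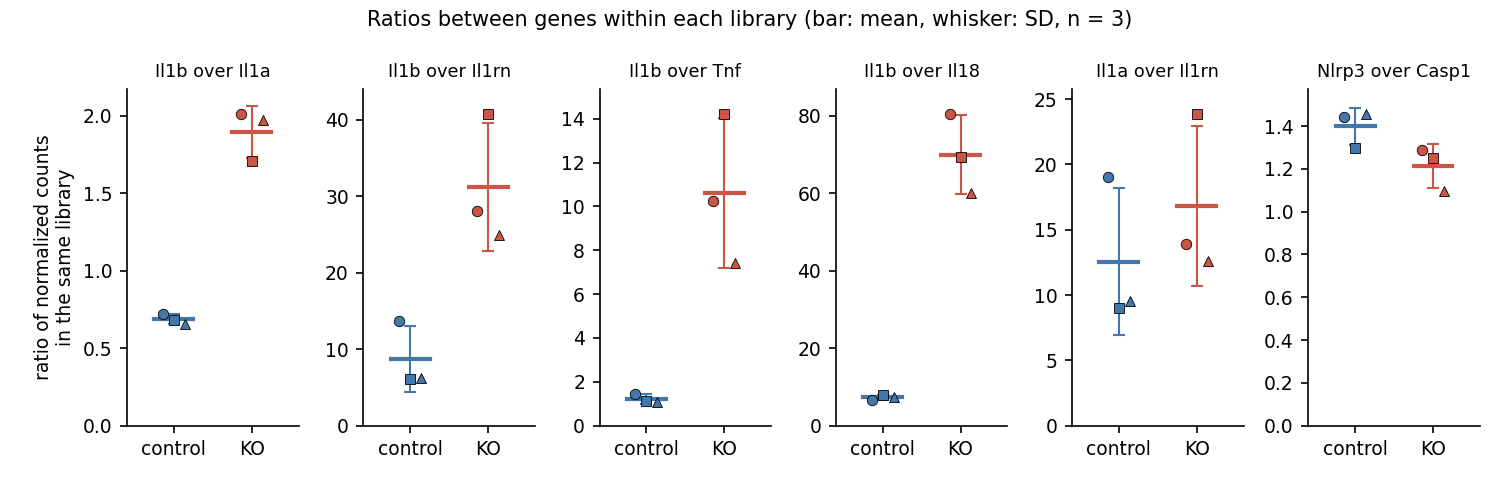
Ratios of normalized counts of 2 genes in the same library, 1 panel per pair with its own linear axis from 0, with points per library (shapes as replicates 1, 2 and 3), bars at means and whiskers of 1 SD (n = 3). The 4 ratios with Il1b on top are higher in every KO library, Il1a over Il1rn overlaps, and Nlrp3 over Casp1 is slightly lower in KO.

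The same libraries differed in microglia markers, which summed to 3.41 times as much in KO as in controls, a log2 ratio of 1.77. Relative to that sum, Il1b was higher in KO, Nlrp3, Casp1, Il10, Il1a, Il1rn and Il12b were not called, and Tnf, Il18 and Il6 were lower. Il1b came to 3.41, 3.93 and 4.52% of the summed markers in controls and to 11.9, 7.90 and 10.4% in KO. With the libraries scaled to that sum, its log2 fold change was 1.34, and it was the 1 gene of the 10 called higher in limma (adjusted p = 1.8e-05). Tnf came to 2.33, 3.52 and 4.23% in controls and to 1.165, 0.556 and 1.41% in KO, and its log2 fold change was -1.75 under this scaling (called lower). Il18 (-1.90) and Il6 (-1.37) were also called lower. Casp1 (0.34), Il10 (0.16), Nlrp3 (0.13), Il1a (-0.12), Il1rn (-0.57) and Il12b (-0.82) were called in neither direction. This scaling moved the median of all genes tested by -1.66 on the log2 scale and left 229 of them called higher and 14351 lower.

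**Figure D3:**
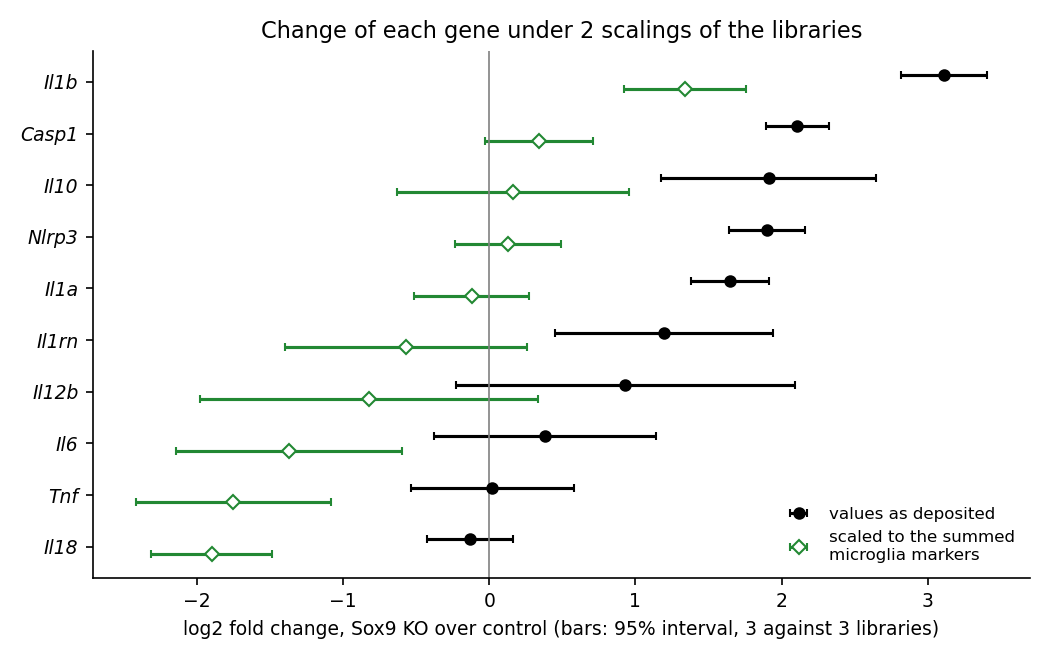
Log2 fold change of Sox9 KO over control for the 10 genes, with 95% intervals over 3 against 3 libraries, as deposited (black circles) and with each library scaled to the same sum of 12 microglia markers (open green diamonds). Il1b is above 0 under both, and Tnf, Il18 and Il6 have intervals that include 0 as deposited and lie below 0 after the scaling.

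Markers of other cell types moved in different directions. Their counts are to be read beside the 22.2% of all genes tested that were called higher and the 28.8% called lower. Border macrophage markers had 2 of 7 called higher and 4 lower, with a sum 1.28 times that of controls, but without Mrc1, their most abundant marker, the ratio was 0.73. Dendritic cell markers had 3 of 7 called higher and 1 lower, with sums of 836 to 1313 normalized counts in controls and 3702 to 4764 in KO. The rise of the sum was carried by Itgax, and the other 6 summed to 306 to 491 and 232 to 381. Those 6 moved apart. By group means, Xcr1 (9.98 to 40.6) and Clec9a (23.7 to 95.8) were called higher and Cd209a (252 to 22.5) lower, and 3 were not called. Monocyte markers had 1 of 5 called higher and 1 lower, with sums of 2240 to 3228 and 972 to 1942. That fall was carried by Vcan, and the other 4 summed to 339 to 885 and 662 to 1428. Neutrophil markers had 6 of 8 called lower and 0 higher, with sums of 805 to 6805 and 275 to 823. T and NK lymphocyte markers had 2 of 7 called higher, with sums of 194 to 378 and 568 to 737, but most of this was Cd4, and the other 7 listed markers summed to 26.3 to 53.6 and 53.6 to 59.2. Neuron markers had 7 of 9 called lower, with sums of 14981 to 19988 and 2291 to 4169. The neutrophil count fell to 1 without control replicate 2 or 3 and to 2 without KO replicate 3, the monocyte count called higher to 0 without KO replicate 3, and the lymphocyte count to 1 without any 1 library other than control replicate 2. No marker of these lists was at 0 in every library. Immediate early genes are transcripts that stimulation or tissue dissociation induces within minutes. The list used here also holds the heat-shock genes Hspa1a, Hspa1b and Dnajb1. All 22 genes of this list were called higher (median log2 fold change 1.66), among them Egr1 (1.63), Zfp36 (1.92), Fos (1.99), Egr2 (2.29) and Atf3 (2.49). Their sum was 3.41 times that of controls, as large as the ratio of the microglia markers. Scaled to the microglia markers, 1 of the 22 was called higher (Atf3, 0.72) and 5 lower, and Egr1 was at -0.14. Quantile normalization took Egr1 to 0.62 and Zfp36 to 1.12, both still called. The part of these lists in the changes of the 10 genes was not tested.

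**Figure D4:**
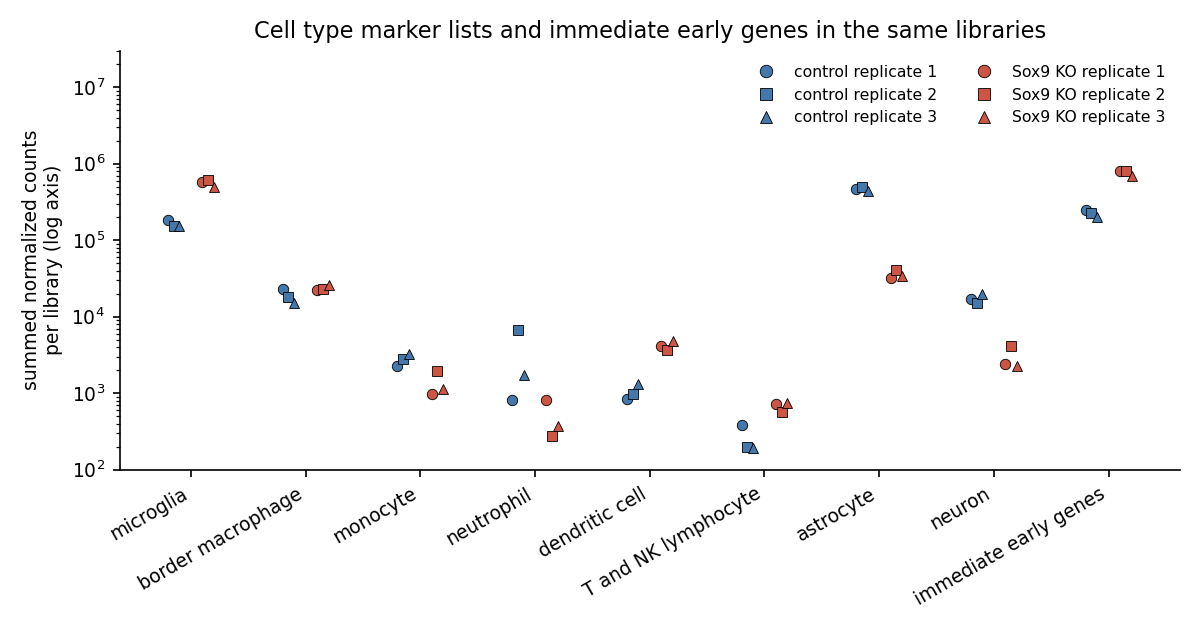
Summed normalized counts of 8 cell type marker lists and the immediate early genes per library on a log axis, controls in blue and Sox9 KO in red, with shapes for replicates. Microglia marker sums are 151644 to 183889 in controls and 492038 to 606646 in KO, and astrocyte marker sums fall from at least 445724 to at most 40349.

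The genes around the 10 members were examined by pathway, with the members left out. Of all 18413 genes tested, 22.2% were called higher and 28.8% lower as deposited. Under the microglia marker scaling, 229 of them were called higher and 14351 lower, so counts called lower under it stand beside a shift of most genes. The inflammasome list, which holds sensors, adaptors, executors and regulators, had 17 of 19 genes called higher and 0 lower (median log2 fold change 1.77). The sensors Nlrp1a (2.41) and Nlrp1b (2.35) rose most, and the regulators Txnip (1.95), Nek7 (1.3) and P2rx7 (1.11), an ATP-gated channel upstream of NLRP3, rose as well. Pycard (1.71), the adaptor that joins NLRP3 to caspase-1, Gsdmd (2.13), which forms the pore that releases interleukin-1β, the DNA sensor Aim2 (2.02) and Casp4 (1.72) rose too, and these 4 were chosen after their values were seen. Scaled to the microglia markers, 2 of the 19 were called higher and 2 lower.

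In the rest of the interleukin-1 family, 3 of 11 genes were called higher and 1 lower (median 0.11), beside 22.2% and 28.8% of all genes tested. Il18bp, a secreted inhibitor of interleukin-18, had 568, 492 and 694 normalized counts in controls and 2963, 1543 and 3508 in KO (log2 fold change 2.12). The interleukin-36 receptor Il1rl2 (2.15) and the interleukin-1 receptor Il1r1 (1.10), which was chosen after its value was seen, also rose. Il33, an alarmin, fell from 2280, 4309 and 3282 normalized counts to 353, 303 and 717 (-2.90). The co-receptor Il1rap was not called (-0.46), but it was called lower at the same total (-0.71), at the same total without Rn45s (-0.79), under the microglia marker scaling (-2.23) and without control replicate 1 (-0.63). Scaled to the microglia markers, 0 of the list were called higher and 6 lower. The count called lower was 2 without control replicate 1, control replicate 3 or KO replicate 3.

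Receptors of the interleukins described above rose in part. The counts below stand beside 22.2% of all genes tested called higher and 28.8% called lower. The interleukin-10 list had 3 of 7 genes called higher and 0 lower, namely the receptor chains Il10ra (2.09) and Il10rb (1.92) and the kinase Tyk2 (1.36), whereas under the microglia marker scaling 0 were called higher and 2 lower. The interleukin-12 list had 4 of 9 called higher and 1 lower (2 lower without control replicate 3, and 2 higher and 2 lower under the marker scaling). Il12rb1 rose by 4.14 on the log2 scale, but with 1, 22 and 8 reads in controls its size is loosely set, and Il27 (2.76), Ebi3 (1.93) and Il12rb2 (1.59) rose as well. The interleukin-6 list had 6 of 16 called higher and 5 lower (median 0.39), the latter near the share of all genes tested. Il6ra (2.26), which was chosen after its value was seen, the signalling chain Il6st (1.06) and the kinase Jak1 (0.80) rose, Lif (-5.23) and the ciliary neurotrophic factor receptor Cntfr (-4.07) fell, and Stat3 (-0.42) was not called. Jak1 lost its call at the same total (0.56), at the same total without Rn45s (0.47) and under quantile normalization (0.36), and Il6st lost its call under quantile normalization (0.44). Stat3 was called lower under each of these scalings (-0.66, -0.75 and -0.84) and under the marker scaling (-2.19), which turned Jak1 to -0.97 and Il6st to -0.71. Scaled to the microglia markers, 1 gene of the interleukin-6 list was called higher and 12 lower.

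The TNF pathway list had 13 of 16 genes called higher and 0 lower (median 1.17), although Tnf itself was not called. Of all genes tested, 22.2% were called higher and 28.8% lower. The receptor Tnfrsf1b (2.20), the inhibitor Tnfaip3 (2.16), the shedding protease Adam17 (1.22) and the adaptor Tab2 (1.17) rose, and the receptor Tnfrsf1a, chosen after its value was seen, was not called (0.30, and below 0 under 3 other scalings). The NF-κB and MyD88 list had 14 of 21 called higher and 0 lower (median 0.81). Rel (1.90), Nfkbiz (0.99) and the inhibitor Irak3 (2.27) rose, although Nfkbiz lost its call under quantile normalization (0.44), and Irak2 was not called (0.24, and below 0 under 3 other scalings). Scaled to the microglia markers, 0 genes of the TNF list were called higher and 9 lower, and 0 of the NF-κB list were called higher and 15 lower. That scaling called 14351 of all 18413 genes tested lower.

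**Figure D5:**
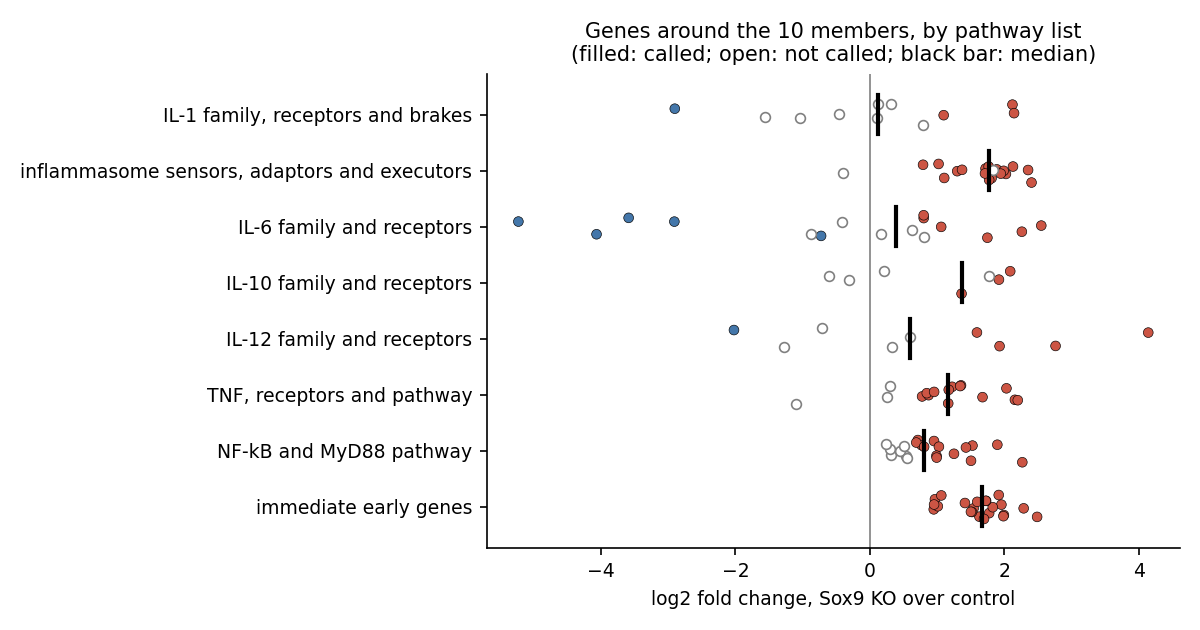
Log2 fold change of Sox9 KO over control for the genes around the 10 members, 1 row per list, with filled points for called genes, open points for genes not called and black bars at list medians. The inflammasome list (median 1.77) and the immediate early genes (1.66) lie to the right, and the interleukin-6 list spreads from -5.23 upward.

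Over the 6 libraries, the gene most like each of the 10 in its pattern was found by Pearson's r of log2 values among 15551 genes with a mean of at least 10, as a description with no test, since the 6 points hold both groups. Il1b was most like Nupl1 (r = 0.99969), Il1a like Rsbn1l (0.99942), Nlrp3 like Hk3 (0.99967), Casp1 like Grn (0.99985) and Il10 like Apoe (0.99769). Il1rn was most like the chemokine gene Ccl22 (0.99131), Tnf like 4930479D17Rik (0.99019), Il18 like Tmem258 (0.98731), Il6 like Fam117a (0.98587) and Il12b like 9330175E14Rik (0.98534).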

How the data were processed

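RNA-seq was made from TurboRFP-positive olfactory bulb cells of 3 control and 3 Sox9 KO mice, grouped by the sample titles. The authors aligned reads with STAR 2.5.0a to mm10, used GenomicAlignments with GenomicFeatures for gene counts, and normalized these with DESeq2 1.20.0. No source used here gives the annotation or says whether counting was strand-aware. The deposited signal values carry the name RPM, yet are reads divided by 1 size factor per library: 100% of values came out as whole reads within 0.01 read. Depth was 18242129 to 86906527 reads on genes, and no column was left unused.

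Values were tested in R 4.3.3 by limma 3.58.1, after taking log2(value + 1) with a pseudocount of 1, a trend of variance on mean expression, two-sided tests and Benjamini-Hochberg adjustment over 18413 genes with a mean of at least 1 (6008 left out). Calls needed 1.5-fold and an adjusted p under 0.05. The recovered reads were also tested with edgeR 4.0.16 (quasi-likelihood, 4340 genes called higher and 5000 lower) and DESeq2 1.42.0 (3994 and 5100). Other pseudocounts, filters, scalings, thresholds, a replicate block and leaving out each library were tried. The tests were checked on simulated data.

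The 10 genes, the lists and the rule for named genes were chosen with earlier results of these data known. Besides the 10 genes and Sox9, the rule named per list the 3 genes with the highest mean and the 2 with the largest absolute fold change among those called with a mean of at least 10, and the gene most like each of the 10. Interleukin-36 genes were matched by their older symbols, and 2 markers (Ly6g and Trac) were not among the symbols used. Transcript lengths came from GENCODE M21, for 95.6% of symbols, in place of the planned RefSeq lengths. Upstream sequences came from RefSeq for 9 of the 10 genes, without Il10.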

Additional observations from a re-analysis of the deposited data

How the results depend on the processing

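The 6 calls among the 10 genes stood at 5 to 8 higher and 0 lower under every alternative other than the scaling to the microglia markers, which gave 1 higher and 3 lower. Il1a, Il1b, Il10, Nlrp3 and Casp1 were called in 19 of 19 other alternatives, and Il1rn in 17, with adjusted p = 0.0639 (log2 fold change 1.2) in limma without the trend. Under the marker scaling, the log2 fold changes were -0.12 for Il1a, -0.57 for Il1rn, -1.37 for Il6, -0.82 for Il12b, -1.75 for Tnf, -1.90 for Il18, 0.16 for Il10, 0.13 for Nlrp3 and 0.34 for Casp1. Tnf was -0.22 at the same total, -0.31 at the same total without Rn45s and -0.36 under quantile normalization, which also brought Il6 to 1.19 and Il12b to 1.59, both called. The cause was not tested. With libraries left out in turn, log2 fold changes ranged from 1.54 to 1.73 for Il1a, 2.96 to 3.21 for Il1b, -0.22 to -0.03 for Il18, 0.80 to 1.51 for Il1rn, 0.16 to 0.65 for Il6, 0.57 to 1.65 for Il12b, -0.16 to 0.36 for Tnf, 1.59 to 2.10 for Il10, 1.81 to 1.99 for Nlrp3 and 2.07 to 2.16 for Casp1, and the counts of the 10 genes from 5 to 7 higher. With Tnf, leaving out control replicate 1 (-0.13), KO replicate 1 (-0.13) or KO replicate 3 (-0.16) turned the sign.

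Samples of the same replicate number did not deviate together (r = -0.05, -0.01 and -0.01), and the replicate block left 6 higher and 0 lower and changed no call among the 10 genes. The 1 list count it moved was that of the lymphocyte markers, to 1 higher.

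Of 640 recomputed counts of the lists, 59 moved by over 1.5 times. Over all 18413 genes tested, the marker scaling called 229 higher and 14351 lower. Under the marker scaling, the counts higher and lower were 0 and 6 for the IL-1 list, 2 and 2 for the inflammasome, 1 and 12 for IL-6, 0 and 2 for IL-10, 2 and 2 for IL-12, 0 and 9 for TNF, 0 and 15 for NF-κB, 1 and 5 for immediate early genes, 0 and 2 for microglia, 0 higher for border macrophage, 0 and 3 for monocyte, 1 and 4 for dendritic cell and 0 higher for lymphocyte markers. The IL-1 list had 2 lower at the same total and 3 without Rn45s, border macrophage markers 1 higher under both and under quantile normalization, lymphocyte markers 1 higher at the same total, without Rn45s, at a pseudocount of 0.1, at a minimum mean of 10, in edgeR and in DESeq2, and monocyte markers 0 higher without Rn45s and in limma without the trend. Quantile normalization gave 5 higher for IL-10, 3 for monocyte and 6 for dendritic cell markers and 2 lower for neutrophil markers, which had 0 lower in limma without the trend. At 2-fold, NF-κB genes had 7 higher and border macrophage markers 1 higher and 2 lower. With libraries left out, the counts ranged from 1 to 2 lower for IL-1, 1 to 2 lower for IL-12, 0 to 1 higher for monocyte, 1 to 6 lower for neutrophil and 1 to 2 higher for lymphocyte markers.

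The 41 genes counted here are those of the pathway and immediate early lists given with a log2 fold change. Cell type markers named above, Xcr1 among them from outside the naming rule, are left out. Of the 41, 36 were above 0 as deposited, and 21 of these under the marker scaling, with 5 called higher. Those that turned were Il1r1 (-0.67), Nek7 (-0.47), P2rx7 (-0.66), Pycard (-0.06), Casp4 (-0.05), Il6st (-0.71), Jak1 (-0.97), Tyk2 (-0.41), Il12rb2 (-0.17), Tnfrsf1a (-1.47), Adam17 (-0.55), Tab2 (-0.60), Nfkbiz (-0.78), Irak2 (-1.53) and Egr1 (-0.14). Tnfrsf1a and Irak2 also turned at the same total without Rn45s (-0.03 and -0.08) and under quantile normalization (-0.04 and -0.01). Depth limits Il6, Il12b and Il10, with 23 to 395 reads for Il6 and Il10, and 3 libraries per group limit every interval.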
